A study of Rattus norvegicus with 10 samples.

Results

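The genes described here encode the transporters and the enzyme that carry glutamate and glutamine between neurons and astrocytes in the hippocampus. They are the glutamate transporter genes Slc1a1, Slc1a2 and Slc1a3, the glutamine synthetase gene Glul, the glutamine transporter genes Slc38a1 and Slc38a3, and the vesicular glutamate transporter genes Slc17a6 and Slc17a7. They were chosen by symbol, and all 8 were present among the 17168 genes of the count table and among the 11682 that passed the filter on low counts. RNA came from the left hippocampus of 11-month-old female TgF-344AD rats, 5 fed chow with ibudilast for 6 months from 5 months of age and 5 fed chow without it, labelled as not treated. All 10 animals carried the transgenes of this Alzheimer disease model, mutant human genes known to be driven by a mouse prion promoter, and no non-transgenic or male animals were analysed here. Ibudilast is an oral inhibitor of several phosphodiesterases, enzymes that break down cyclic nucleotides. The comparison asks which transcripts differ between treated and untreated transgenic females. The titles give each library an animal tag of its own.

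Glutamate released at synapses is cleared mainly by astrocytes, through GLT-1 (encoded by Slc1a2) and GLAST (Slc1a3), while EAAC1 (Slc1a1) is a transporter of neurons. Astrocytes turn glutamate into glutamine with glutamine synthetase (Glul) and export glutamine through system N transporters such as SNAT3 (Slc38a3). Neurons take glutamine up through system A transporters such as SNAT1 (Slc38a1), convert it back to glutamate, and load glutamate into vesicles with VGLUT1 (Slc17a7), the main form of hippocampal and cortical pyramidal cells, or VGLUT2 (Slc17a6), which is abundant in the thalamus.

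Library totals ran from 7553804 to 10121571 estimated counts with ibudilast and from 6960066 to 8204390 without treatment. Tissue markers differed between libraries in ways that touch these genes. Ibudilast 3 held 3461 CPM (read counts scaled by library size and TMM factors) of 6 cerebellar markers in sum, against 18.7 to 63.0 CPM in the other 4 ibudilast libraries and 10.9 to 28.0 CPM in the untreated group. It also held 684 CPM of 10 thalamic markers, against 122 to 201 CPM in the other ibudilast libraries and 117 to 172 CPM in untreated ones. Most of those 684 CPM came from Zic1 (295 CPM) and Calb2 (196 CPM), which did not pass, so that sum says little about the other thalamic markers. The granule cell marker Gabra6 and the Purkinje cell marker Pcp2 were both at 0 in ibudilast 4 and untreated 5, and Pcp2 was also at 0 in ibudilast 2 and untreated 1. Untreated 1 held 2560 CPM of 6 choroid plexus markers, against 4.93 to 125 CPM with ibudilast and 7.66 to 25.1 CPM in the other untreated libraries. The sum of 11 astrocyte markers was 2169 to 2778 CPM with ibudilast and 3001 to 4143 CPM without, and 6 of the 11 fell and 1 rose. The sum of 10 neocortical markers was 553 to 883 CPM with ibudilast and 316 to 454 CPM without, and 5 of the 9 that were tested rose. The sum of 6 meningeal markers reached 506 CPM (ibudilast 3) and 548 CPM (ibudilast 5), with 25.0 to 56.7 CPM in the other ibudilast libraries and 31.8 to 68.1 CPM in untreated ones. Microglial markers summed to 286 to 511 CPM with ibudilast and 570 to 898 CPM without, and 8 of 9 fell. Of 10 oligodendrocyte markers 0 passed in edgeR, with sums of 5819 to 12088 CPM with ibudilast and 6267 to 18850 CPM without. Pan-neuronal markers summed to 7913 to 10878 CPM with ibudilast and 7648 to 11074 CPM without. Of 11 hippocampal principal cell markers, 8 were tested, of which 4 fell and 0 rose, with a median log2 fold change of -0.86. Their sum was 422 to 1034 CPM with ibudilast and 518 to 1465 CPM without. Most of the sum with ibudilast came from Wfs1 and Mpped1, which did not pass. These averaged 282 and 272 CPM with ibudilast and 178 and 207 CPM without, so the sum says little about the markers that fell. Tdo2 was at 0 in 8 of the 10 libraries, all but ibudilast 5 and untreated 1. In such bulk tissue, fewer cells of a type, less RNA per cell and a different share of neighbouring tissue cannot be told apart.

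**Figure D1:**
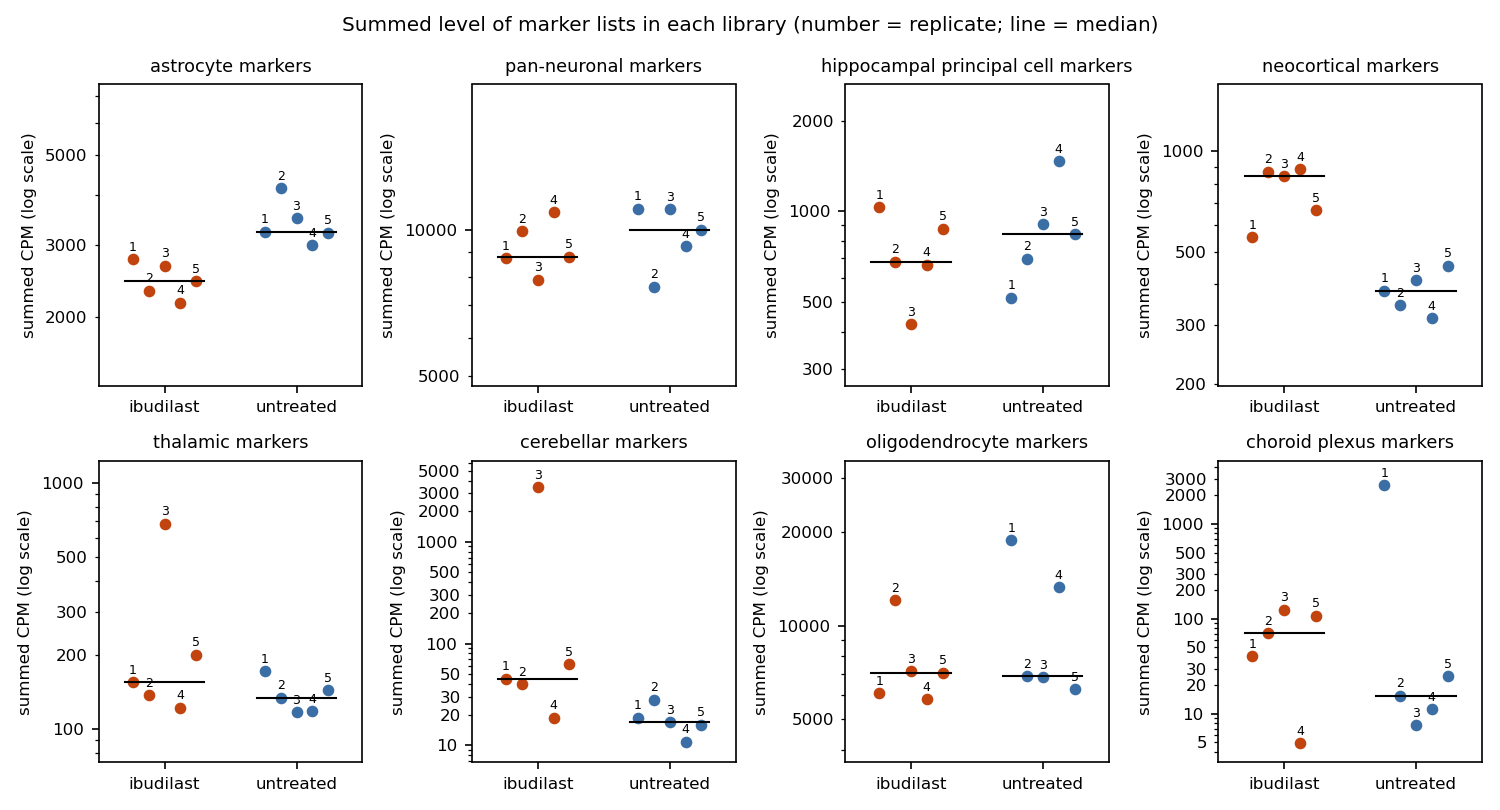
Summed level of 8 marker lists in each library, in TMM-scaled CPM on a log axis, with the 5 ibudilast libraries on the left and the 5 untreated libraries on the right; numbers are replicates and lines are medians. Ibudilast 3 stands apart for cerebellar markers at 3461 CPM, and the groups do not overlap for astrocyte or neocortical markers.

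Of the 8 genes, Slc38a1 rose and Slc38a3 fell with ibudilast, and the other 6 did not pass the test (quasi-likelihood test of edgeR, with a threshold of 0.05 on p adjusted after Benjamini and Hochberg over all 11682 genes). Over all tested genes 20.0% rose and 18.5% fell, so that 1 of 8 in each direction is no more than the share among genes at large. The median log2 fold change of the 8 was -0.04, and that of all tested genes 0.01. The change in Slc38a1 was the largest of the 8, and it had the 13th smallest p-value of all tested genes and the 185th largest log2 fold change. Replicates here are libraries from separately tagged animals.

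**Figure D2:**
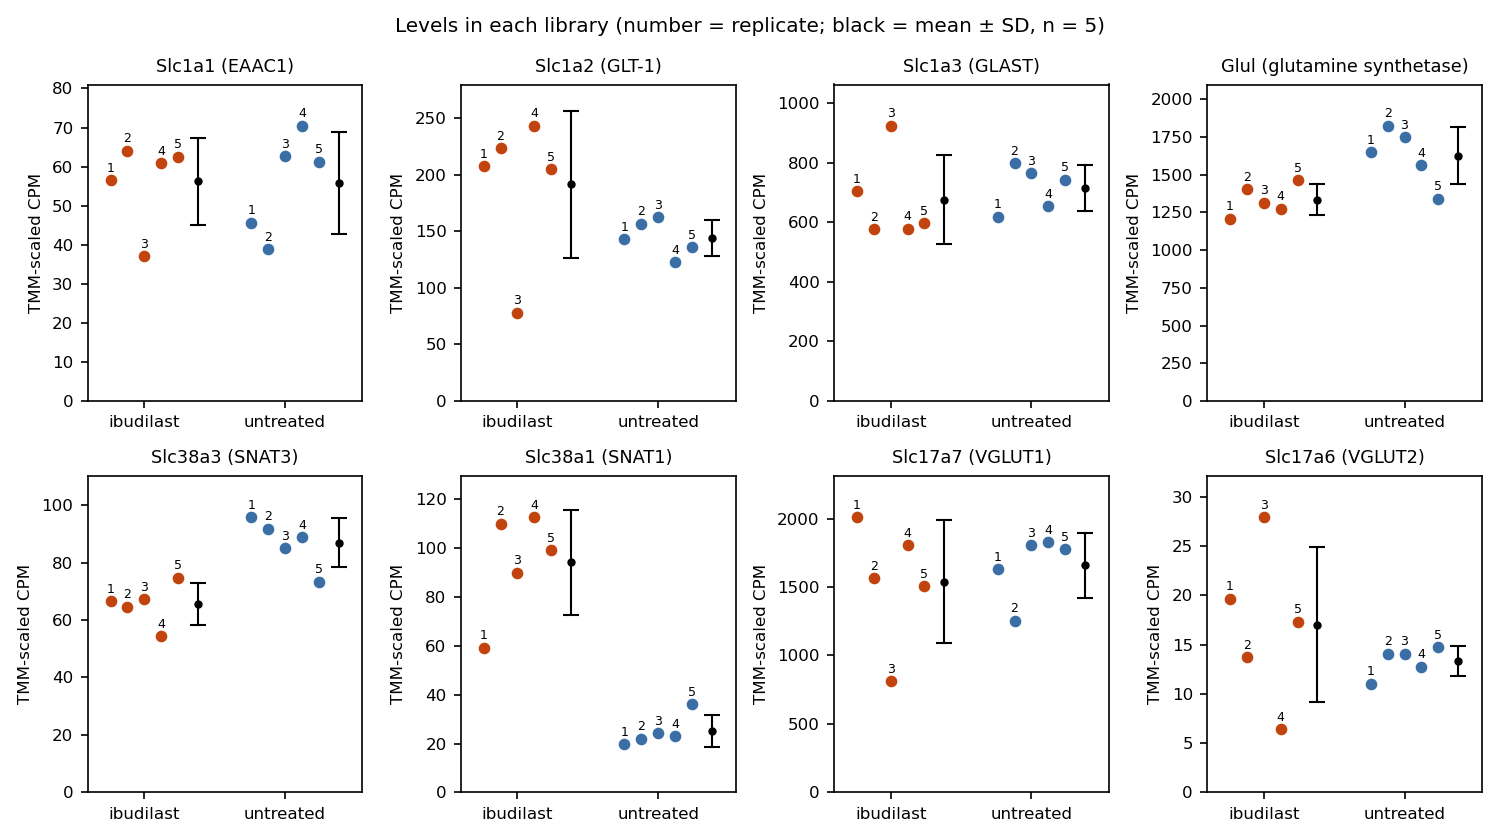
Level of each of the 8 genes in every library, in TMM-scaled CPM, with ibudilast on the left and untreated on the right of each panel; numbers are replicates, and the black point and bar are the mean and SD of 5 libraries. The groups are apart for Slc38a1 only, at 59.3 to 113 CPM with ibudilast and 19.7 to 36.1 CPM without, and ibudilast 3 lies below the other ibudilast libraries for Slc1a1, Slc1a2 and Slc17a7 and above them for Slc1a3 and Slc17a6.

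Slc38a1 encodes SNAT1, the sodium-coupled transporter that brings glutamine into neurons, and it is known to be prominent in GABAergic cells. Its level was 59.3, 110, 89.9, 113 and 99.1 CPM in ibudilast 1 to 5, against 19.7, 22.0, 24.3, 23.1 and 36.1 CPM in untreated 1 to 5. Every ibudilast library lay above every untreated one, as for 12.5% of all tested genes, and the lowest ibudilast library was ibudilast 1 and the highest untreated one untreated 5. The mean was 94.2 ± 21.5 CPM with ibudilast and 25.1 ± 6.42 CPM without (SD, n = 5 each), and edgeR put the log2 fold change at 1.91 ± 0.20 (SE; adjusted p = 0.000664), or 3.76-fold. These levels rest on 455 to 1045 counts per ibudilast library and 134 to 262 counts per untreated library. The call held with each library left out, with log2 fold changes from 1.83 to 2.11, and under the 19 other settings tried, from 1.53 to 1.95. The highest adjusted p-values came with marker scores as covariates, a score being the mean over a list's tested markers, without the 8 genes, of log2 CPM standardised over the 10 libraries. The log2 fold change was 1.53 with the neocortical score (adjusted p = 0.0128) and 1.62 with the astrocyte score (adjusted p = 0.0481), and in that last fit edgeR called 0.959% of all genes.

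Slc38a2, which encodes the related system A transporter SNAT2, is the neighbour of Slc38a1 on chromosome 7 and belongs to the list of other transporters described further on. It had 115, 168, 299, 168 and 214 CPM in ibudilast 1 to 5, against 110, 88.5, 112, 94.7 and 114 CPM in untreated 1 to 5. The groups were apart by a small margin, between ibudilast 1 and untreated 5. Its edgeR log2 fold change was 0.89 ± 0.21 (SE; adjusted p = 0.00789), and 0.69 without ibudilast 3, which had the highest level. Without ibudilast 3, ibudilast 5 and untreated 1 it was 0.55 (adjusted p = 0.0303). It did not pass with the hippocampal (adjusted p = 0.0726) or the astrocyte score (adjusted p = 0.0845) as a covariate. The sequences of 250 bases upstream of an annotated start of these neighbouring genes, the glutamine importers that rose, are shown from RefSeq (GRCr8, minus strand) at chr7:129681402-129681651 for Slc38a1 and chr7:129742620-129742869 for Slc38a2. The start used for Slc38a1 lies inside the annotated extent of the gene, since other transcripts of it start farther upstream. Capitals mark TGACG, the short core of the cAMP response element, searched on both strands.
Slc38a1: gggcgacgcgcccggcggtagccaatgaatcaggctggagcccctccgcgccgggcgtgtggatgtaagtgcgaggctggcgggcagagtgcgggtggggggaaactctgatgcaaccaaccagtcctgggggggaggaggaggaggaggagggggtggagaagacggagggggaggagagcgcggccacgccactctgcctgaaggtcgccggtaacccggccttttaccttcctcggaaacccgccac
Slc38a2: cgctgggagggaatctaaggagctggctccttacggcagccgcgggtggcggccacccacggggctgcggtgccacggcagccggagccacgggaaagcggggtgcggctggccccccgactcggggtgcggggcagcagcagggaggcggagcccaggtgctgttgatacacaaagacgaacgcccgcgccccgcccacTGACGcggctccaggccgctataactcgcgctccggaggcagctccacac
The window of Slc38a2 held TGACG once, beginning 50 bases before the start, and that of Slc38a1 held none. Neither held the full element TGACGTCA or the E-box CACGTG. Among 33469 RefSeq windows of the same length, 18.2% held TGACG in either orientation, 1.59% held TGACGTCA, which includes TGACG, and 5.59% held CACGTG. Entries were found for 6 of the 8 genes, and of their 10 windows only that of Slc17a6 held any of these motifs, TGACG at 235 bases before the start.

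Slc38a3 encodes SNAT3, which releases glutamine from astrocytes, and it fell. Its level was 66.4, 64.6, 67.2, 54.4 and 74.7 CPM in ibudilast 1 to 5, against 95.7, 91.8, 85.0, 88.8 and 73.4 CPM in untreated 1 to 5. The groups overlapped at 1 point, where ibudilast 5 was above untreated 5. The mean was 65.5 ± 7.28 CPM with ibudilast and 87.0 ± 8.54 CPM without (SD, n = 5 each), and edgeR put the log2 fold change at -0.41 ± 0.10 (SE; adjusted p = 0.00981). The call held with each library left out, from -0.46 to -0.35. It was lost with the neocortical score (-0.27, adjusted p = 0.259) and the astrocyte score (-0.30, adjusted p = 0.22) as covariates. The astrocyte marker sum given above was also lower with ibudilast, and its part in this result and that of Glul was not tested beyond that covariate.

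Glul encodes glutamine synthetase, the astrocytic enzyme that makes glutamine from glutamate and ammonia. Its level was 1208, 1405, 1316, 1275 and 1464 CPM in ibudilast 1 to 5, against 1651, 1825, 1751, 1563 and 1342 CPM in untreated 1 to 5. Of the untreated libraries 4 were above all ibudilast libraries, and untreated 5 lay within their range. The mean was 1334 ± 102 CPM with ibudilast and 1626 ± 187 CPM without (SD, n = 5 each), and the log2 fold change of -0.29 ± 0.11 (SE) missed the threshold (edgeR adjusted p = 0.0598). It passed without untreated 5 (-0.32, adjusted p = 0.0398), by DESeq2 (adjusted p = 0.0143), with upper-quartile factors (adjusted p = 0.0372), with 1 surrogate variable (adjusted p = 0.0418) and with a trend over gene span removed (-0.50, adjusted p = 0.00845). It did not pass under the other alternatives, where the weakest value was that with the astrocyte score (-0.19, adjusted p = 0.475) and the neocortical score gave an adjusted p of 0.246. The 95% confidence interval of the log2 fold change was -0.53 to -0.04.

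The astrocytic glutamate transporters did not pass with all libraries, and whether Slc1a2 passed depended on ibudilast 3 and on the covariate. Slc1a2, which encodes GLT-1, the main glutamate transporter of the forebrain, had 208, 224, 78.2, 243 and 205 CPM in ibudilast 1 to 5, against 143, 157, 163, 123 and 136 CPM in untreated 1 to 5. Of the ibudilast libraries 4 were above all untreated ones, and ibudilast 3 was below all of them. With all libraries the log2 fold change was 0.41 ± 0.24 (SE; edgeR adjusted p = 0.203; 95% confidence interval -0.13 to 0.95). Without ibudilast 3 it was 0.62 and passed (edgeR adjusted p = 0.00122), and without ibudilast 3, ibudilast 5 and untreated 1 it was 0.63 (adjusted p = 0.00936). It also passed with all libraries and the thalamic score as a covariate (0.57, adjusted p = 0.0211). That score was 1.19 in ibudilast 3 and -0.74 to 0.60 in the other libraries, so this fit is not separate from those without ibudilast 3. With the neocortical score as a covariate it was -0.51 and did not pass (adjusted p = 0.24). With the trend over gene span removed it was 0.10 (adjusted p = 0.782), and the span of Slc1a2, 130 kb in GRCr8, is longer than that of 89.5% of the tested genes with a known span.

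Slc1a3, which encodes GLAST, a transporter of astrocytes and of the Bergmann glia of the cerebellum, had 704, 577, 925, 579 and 598 CPM in ibudilast 1 to 5, against 619, 798, 766, 654 and 744 CPM in untreated 1 to 5. Ibudilast 3 was the highest of all libraries and 3 other ibudilast libraries were below every untreated one. The edgeR log2 fold change was -0.08 ± 0.15 (SE; adjusted p = 0.677; 95% confidence interval -0.40 to 0.24), and -0.21 without ibudilast 3 (adjusted p = 0.133). The log2 ratio of Slc1a2 to Slc1a3 counts within a library, which does not depend on scaling, was -1.76, -1.37, -3.56, -1.25 and -1.54 in ibudilast 1 to 5, against -2.11, -2.35, -2.24, -2.42 and -2.45 in untreated 1 to 5. It was higher than in any untreated library in 4 ibudilast libraries and lower in ibudilast 3. Glul over Slc1a2 was arranged the other way, with 2.39 to 2.83 in those 4 ibudilast libraries and 4.07 in ibudilast 3, against 3.30 to 3.67 in untreated libraries. These ratios are of counts not divided by transcript length, so their differences between libraries can be read, and their level cannot.

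**Figure D3:**
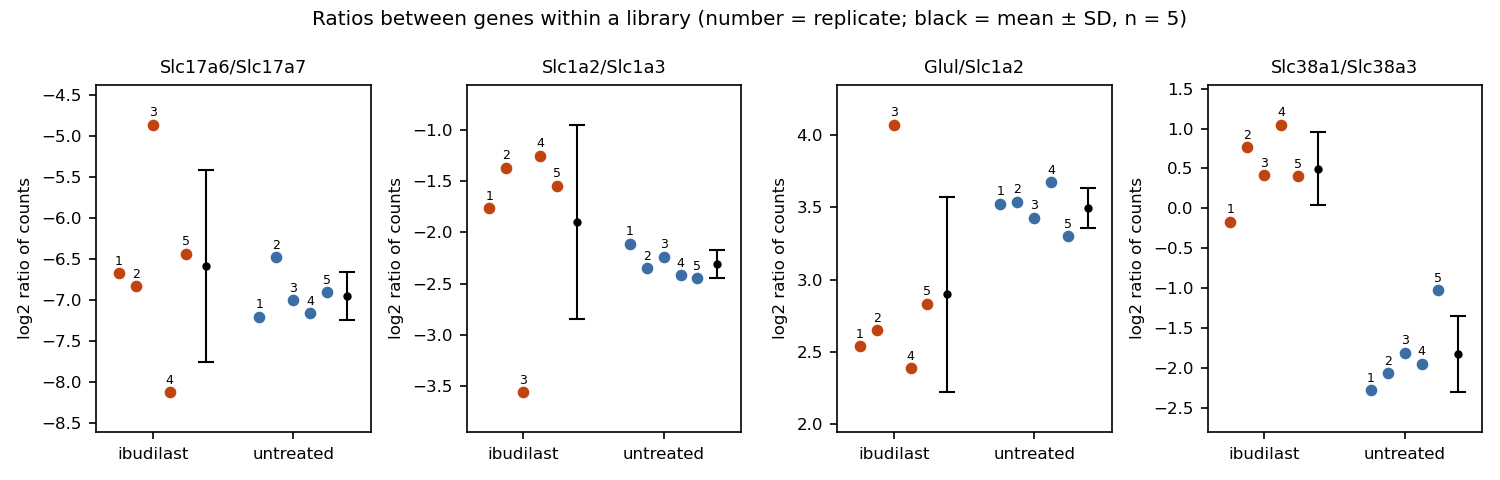
Log2 ratio of the counts of 2 genes within each library, with ibudilast on the left and untreated on the right of each panel; numbers are replicates, and the black point and bar are the mean and SD of 5 libraries. The groups are apart for Slc38a1 over Slc38a3, a pair picked because its genes were called in opposite directions, and ibudilast 3 lies outside the untreated range on the opposite side from the other ibudilast libraries for Slc1a2 over Slc1a3 and Glul over Slc1a2.

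Slc1a1, which encodes the neuronal transporter EAAC1, had 56.5, 64.1, 37.1, 60.9 and 62.6 CPM in ibudilast 1 to 5, against 45.7, 38.8, 62.6, 70.5 and 61.2 CPM in untreated 1 to 5. The groups covered nearly the same range. The edgeR log2 fold change was 0.01 ± 0.19 (SE; adjusted p = 0.966), with a 95% confidence interval of -0.40 to 0.42, and its sign changed with the library left out, from -0.09 to 0.14.

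Neither vesicular transporter passed. Slc17a7, which encodes VGLUT1, had 2009, 1566, 814, 1804 and 1506 CPM in ibudilast 1 to 5, against 1629, 1255, 1804, 1828 and 1775 CPM in untreated 1 to 5. Ibudilast 3 was the lowest library and ibudilast 1 the highest, so that the untreated range lay inside that of the ibudilast group. The edgeR log2 fold change was -0.11 ± 0.21 (SE; adjusted p = 0.719; 95% confidence interval -0.58 to 0.36), and 0.06 without ibudilast 3.

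Slc17a6, which encodes VGLUT2, had 19.7, 13.7, 27.9, 6.45 and 17.3 CPM in ibudilast 1 to 5, against 11.0, 14.1, 14.1, 12.7 and 14.8 CPM in untreated 1 to 5. The ibudilast libraries spread on both sides of the untreated ones, with a coefficient of variation of 46.3% with ibudilast and 11.1% without. The edgeR log2 fold change was 0.35 ± 0.30 (SE; adjusted p = 0.37; 95% confidence interval -0.30 to 1.01) and rested on 55 to 248 counts per library. It was 0.11 without ibudilast 3, -0.02 with the thalamic score as a covariate and 1.19 with the neocortical score, where it passed (adjusted p = 0.0302). Ibudilast 3, the highest library for Slc17a6, also had the highest sums of thalamic and of cerebellar markers (3461 CPM for the second). Ibudilast 4, the lowest, had the lowest thalamic sum (122 CPM) and cerebellar sum (18.7 CPM) of the ibudilast group. Untreated 3 and untreated 4 had lower sums still (thalamic 117 and 118 CPM, cerebellar 16.8 and 10.9 CPM) with more Slc17a6, at 14.1 and 12.7 CPM. No cerebellar score was tried as a covariate. The log2 ratio of Slc17a6 to Slc17a7 was -6.67, -6.84, -4.87, -8.13 and -6.44 in ibudilast 1 to 5, against -7.20, -6.48, -7.00, -7.16 and -6.91 in untreated 1 to 5, with the highest and the lowest values both in the ibudilast group.

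The log2 ratio of Slc38a1 to Slc38a3, looked at after the values were seen, was -0.16, 0.77, 0.42, 1.05 and 0.41 in ibudilast 1 to 5, against -2.28, -2.06, -1.81, -1.94 and -1.02 in untreated 1 to 5. The mean was 0.50 ± 0.46 with ibudilast and -1.82 ± 0.48 without (SD, n = 5 each), and the groups did not overlap. The pair was picked because Slc38a1 rose and Slc38a3 fell, so this separation follows from that choice and adds no support to either call.

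**Figure D4:**
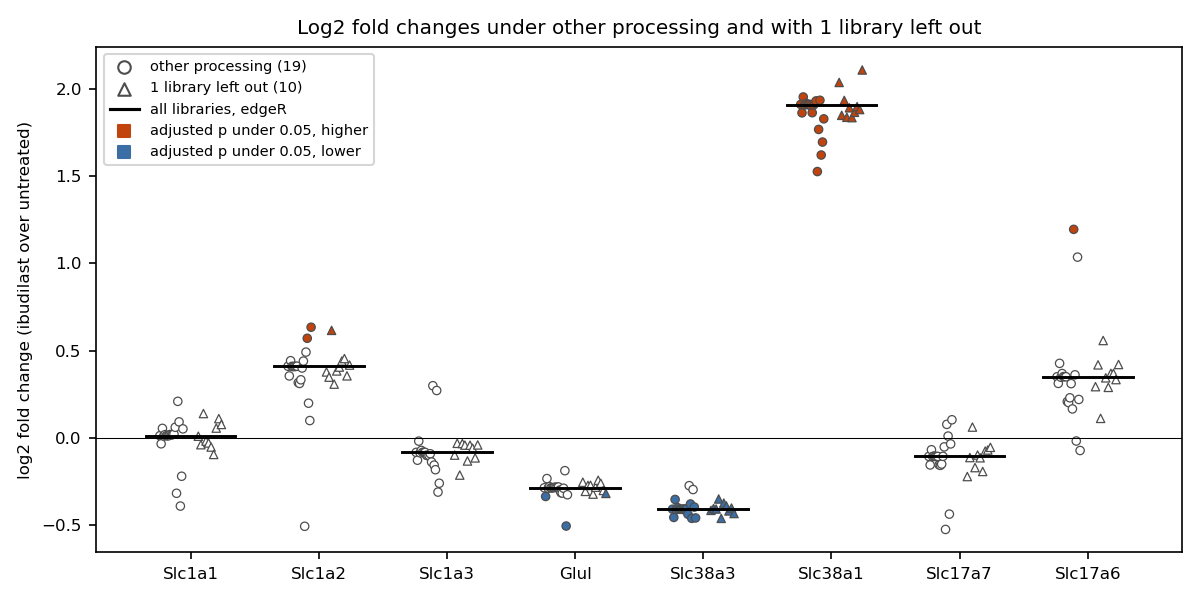
Log2 fold change of ibudilast over untreated for each of the 8 genes with all libraries (black line), under 19 other settings (circles) and with 1 library left out (triangles); filled symbols have an adjusted p under 0.05. Slc38a1 stays between 1.53 and 2.11 and is filled throughout, whereas Slc1a1, Slc1a2, Slc1a3, Slc17a6 and Slc17a7 take values on both sides of 0.

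Other genes of glutamate and glutamine handling came from 3 lists, in which 32 genes were measured and tested, 7 of them higher and 5 lower. Their median log2 fold change was 0.05, against 0.01 for all tested genes, and the share called was close to the 38.5% of all genes. The count on the lower side was 3 without ibudilast 2, untreated 1, untreated 3 or untreated 5.

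Among 12 other transporters of glutamate and glutamine, Slc38a2 and Slc38a7 rose, Slc3a2 and Slc17a8 fell, and 8 did not pass. Slc38a7, which encodes a lysosomal glutamine exporter, averaged 17.4 ± 1.86 CPM with ibudilast and 12.2 ± 2.15 CPM without (SD, n = 5 each; log2 fold change 0.51, edgeR adjusted p = 0.0165). It did not pass without ibudilast 3, ibudilast 5 and untreated 1 together (0.42, adjusted p = 0.0676) or with the neocortical score (adjusted p = 0.107). Slc3a2 encodes the heavy chain that carries several amino acid exchangers to the membrane, among them the cystine-glutamate exchanger. It had 155 to 179 CPM in ibudilast libraries and 222 to 269 CPM in untreated ones, with no overlap, as for 11.7% of all tested genes on the lower side, and its edgeR log2 fold change was -0.56 ± 0.08 (SE; adjusted p = 0.00117). The light chain of that exchanger, Slc7a11, had 60.8 to 124 CPM with ibudilast and 85.0 to 123 CPM without and did not pass. Slc17a8, which encodes VGLUT3, had 1.41 to 4.30 CPM with ibudilast and 1.71 to 8.40 CPM without, from 12.1 to 33.4 counts per ibudilast library and 14.4 to 59.6 per untreated library. Its log2 fold change of -1.21 (edgeR adjusted p = 0.0444) survived the removal of ibudilast 1 or untreated 2, and not that of any other single library. It was also lost under 10 of the 18 other settings that kept the gene, among them total counts alone (adjusted p = 0.0558), limma-voom (adjusted p = 0.0873) and 1 surrogate variable (adjusted p = 0.0526). Slc1a6, which encodes the Purkinje cell transporter EAAT4, stood at 72.3 CPM in ibudilast 3 and at 4.11 to 4.74 CPM in the other ibudilast libraries, against 3.09 to 6.02 CPM in untreated ones, and did not pass (adjusted p = 0.0752).

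Of 12 enzymes of glutamate and glutamine metabolism, Gls2, Pc, Gad2 and Abat rose, Glud1 fell and 7 did not pass. Gls2, which encodes a glutaminase that makes glutamate from glutamine, had 51.9 to 77.5 CPM with ibudilast and 35.4 to 47.3 CPM without, and edgeR put the log2 fold change at 0.67 ± 0.12 (SE; adjusted p = 0.00259). Glud1, which encodes the mitochondrial enzyme that turns glutamate into 2-oxoglutarate, averaged 312 ± 44.6 CPM with ibudilast and 479 ± 77.1 CPM without (SD, n = 5 each), and edgeR put the log2 fold change at -0.62 ± 0.13 (SE; adjusted p = 0.00495). Pc encodes pyruvate carboxylase, through which astrocytes make new glutamate, and averaged 161 ± 9.68 CPM with ibudilast and 122 ± 13.1 CPM without (SD, n = 5 each; log2 fold change 0.40, adjusted p = 0.00613). With the neocortical score as a covariate, Slc38a2, Abat and Slc3a2 passed among the 12 genes called in the 3 lists. The Pc call was also lost with the trend over gene span removed (0.13, adjusted p = 0.272).

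The branch from glutamate to GABA was represented by Gad1, Gad2, Abat and Aldh5a1. Gad2, which encodes a GABA-synthesising enzyme, had 67.1 to 111 CPM with ibudilast and 25.9 to 74.2 CPM without, and edgeR put the log2 fold change at 1.10 ± 0.25 (SE; adjusted p = 0.00644). Gad1, its partner in this step, averaged 324 ± 86.2 CPM with ibudilast and 264 ± 72.6 CPM without (SD, n = 5 each) and did not pass (adjusted p = 0.288). Abat, which encodes GABA transaminase, had 99.1 to 136 CPM with ibudilast and 53.4 to 79.4 CPM without, and edgeR put the log2 fold change at 0.82 ± 0.13 (SE; adjusted p = 0.00125). Aldh5a1, which encodes the next enzyme of GABA breakdown, did not pass (0.07, adjusted p = 0.534). Both Gad genes also stand in the list of GABAergic interneuron markers, whose sum was 1025 to 1381 CPM with ibudilast and 762 to 1115 CPM without. Of its 8 markers 2 were higher, near the 20.0% of all tested genes, and Gad2 is itself among those 2. The part of that sum in these results was not tested.

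Of 8 partners of glutamate uptake, Kcnj10 rose, Gja1 and Arl6ip5 fell and 5 did not pass. Kcnj10, which encodes the astrocytic potassium channel Kir4.1, had 27.0 to 37.1 CPM with ibudilast and 16.4 to 21.7 CPM without, and edgeR put the log2 fold change at 0.75 ± 0.12 (SE; adjusted p = 0.00163). Gja1, which encodes the gap junction protein connexin 43 and is also among the astrocyte markers, had 266 to 458 CPM with ibudilast and 595 to 744 CPM without, and edgeR put the log2 fold change at -0.87 ± 0.16 (SE; adjusted p = 0.00248). Arl6ip5, which encodes a protein that restrains EAAC1, averaged 63.0 ± 6.27 CPM with ibudilast and 81.1 ± 12.7 CPM without (SD, n = 5 each; log2 fold change -0.36, adjusted p = 0.0326). It did not pass without ibudilast 2, ibudilast 5, untreated 1, untreated 3, untreated 4 or untreated 5, from -0.37 to -0.28 in those fits. In edgeR its call was also lost with total counts alone (adjusted p = 0.0605) and without ibudilast 3, ibudilast 5 and untreated 1 together (adjusted p = 0.153). The same held with the neocortical (adjusted p = 0.352), hippocampal (0.0655), thalamic (0.0529) and astrocyte (0.182) scores as covariates. With the astrocyte score as a covariate 0 of the 32 genes in the 3 lists passed in edgeR, where 112 of all genes did and 3312 had an unadjusted p under 0.05.

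**Figure D5:**
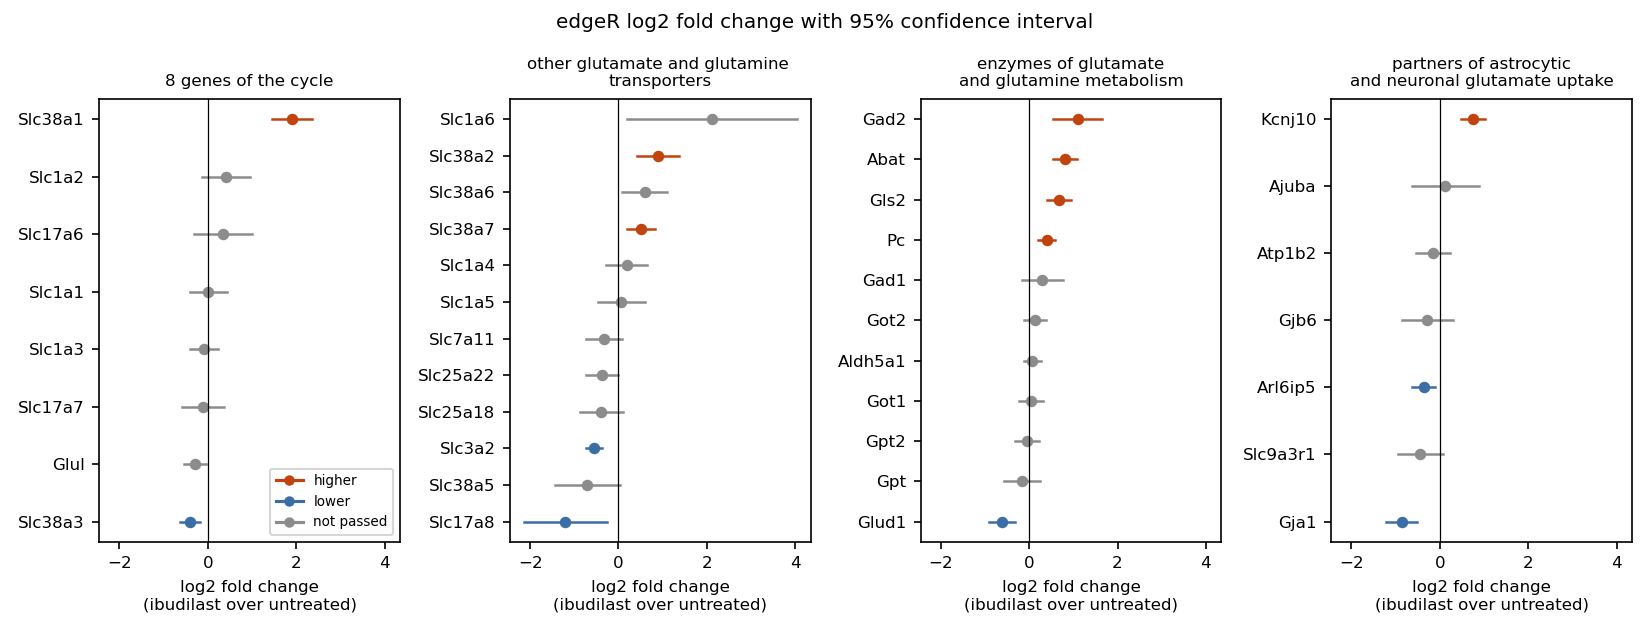
EdgeR log2 fold change of ibudilast over untreated with its 95% confidence interval for the 8 genes and for genes of the 3 lists (all those called and most that did not pass), with calls at an adjusted p under 0.05 in colour. Slc38a1 at 1.91 is the highest call shown, and Slc1a6, whose interval is widest, is high in ibudilast 3 alone.

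The profiles of the more variable members were set against the 8992 genes that averaged 10 CPM or more, by the root-mean-square difference of log2 CPM over the 10 libraries after each gene was centred on its mean. Closest to Slc38a1 were Cds2, which encodes an enzyme of phospholipid synthesis (difference 0.18), and Myo5a, which encodes a vesicle motor (0.18). Cds2 averaged 85.6 ± 13.6 CPM with ibudilast and 24.1 ± 7.77 CPM without (SD, n = 5 each). Closest to Slc1a2 were the muscarinic receptor gene Chrm4 (0.15) and LOC102548847 (0.16), closest to Slc17a7 were Ajap1 (0.10) and Rangap1 (0.12), and closest to Slc1a1 were Adck1 (0.10) and Arhgap39 (0.13). For Slc17a6 the nearest profiles, Mthfd1l and Lrrc16b, lay farther away, at 0.22 and 0.25.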

How the data were processed

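Left hippocampal RNA was purified with the RNeasy Mini kit and sequenced as strand-specific libraries of the Kapa Stranded mRNA kit, per the labels' protocols. The authors deposited expected counts per gene; the submitters' processing notes name RSEM 1.2.15, Bowtie2 2.1.0, bcl2fastq 2.17 and the genome build rn6. For the annotation, any filter and whether strand was used in counting, the sources used here give nothing. A second deposited table, of signal values, holds TMM-scaled CPM from the authors, and the notes list edgeR without its version. Of its values, 99.9% matched TMM-scaled CPM recomputed here within 0.1%.

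The rounded counts went into the quasi-likelihood test of edgeR 4.0.16 (R 4.3.3) with treatment as the only term, after filterByExpr and TMM scaling, and p-values were adjusted by Benjamini-Hochberg over 11682 genes. Levels are TMM-scaled CPM over those genes, and a standard error is the log2 fold change divided by the root of its F statistic. Between 10.6% and 11.3% of the values per library were not whole. The treatment label gave the group, and the title gave the replicate number. Genes were named when they were members, when they passed the test in a pathway list, or by the profile rule given with its result, which used log2 of CPM plus 0.5 and took members with an SD of at least 0.3. Slc1a6, Slc7a11, Gad1 and Aldh5a1, which did not pass, were named after their values were seen, and some other list genes that did not pass are counted and not reported here by name. Members and lists were chosen with earlier results of these data known. Slc38a10, Slc25a12, Slc25a13, Sox9 and Dsp of the lists were not analysed here, and 25 symbols had been turned into dates. Promoter windows and gene spans come from RefSeq (GRCr8), with a span for 98.1% of tested genes, and may differ from those in rn6.

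Alternatives were other scaling factors and filters; counts left unrounded; robust edgeR; DESeq2 1.42.0; limma-voom and limma-trend (limma 3.58.1, the second on log2 of deposited CPM plus 1); a block for the replicate number; a covariate for low or high animal tags; 1 surrogate variable (sva 3.50.0); each of 4 marker scores as a covariate; removal of a trend with gene span; and libraries left out. The fit was tested on simulated data. The simulated counts held no differences in tissue between libraries, so they do not test the fit under such differences.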

Additional observations from a re-analysis of the deposited data

Results flagged for a closer look

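Among 16 groups examined (8 genes in each treatment group), 3 held a library far from the other 4 by Dixon's ratio, where chance alone gives about 1 in 20. Ibudilast 3 was low for Slc1a2, at 78.2 CPM with the next library at 205 CPM (ratio 0.769). It was also low for Slc1a1, at 37.1 CPM with the next at 56.5 CPM (ratio 0.721). Untreated 5 was high for Slc38a1, at 36.1 CPM with the next at 24.3 CPM (ratio 0.72).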

How the results depend on the processing

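The rise of Slc38a1 kept its call under all 29 alternatives run, and the fall of Slc38a3 under all but the neocortical and the astrocyte score. The count of members higher was 1 and became 2 with the neocortical score (Slc17a6 added), with the thalamic score (Slc1a2) and without ibudilast 3, ibudilast 5 and untreated 1 (Slc1a2), and it ran from 1 to 2 with 1 library left out. The count of members lower was 1 and became 2, with Glul added, under upper-quartile factors, DESeq2, 1 surrogate variable and removal of the span trend, and 0 with the neocortical or the astrocyte score. It ran from 1 to 2 with 1 library left out. Of the other pathway genes 7 were higher, or 3 with the neocortical and 0 with the astrocyte score, and 7 to 8 with 1 library left out. The 5 lower became 3 with total counts alone or the hippocampal score, 1 with the neocortical and 0 with the astrocyte score, 8 without the 3 libraries, and 3 to 6 with 1 left out. Over all genes 4497 calls became 1614, 2854 and 112 with the neocortical, hippocampal and astrocyte scores, and the 2160 lower calls became 1357 without the 3 libraries. The neocortical, hippocampal and astrocyte scores vary with treatment. The thalamic score ran from -0.74 to 1.19 with ibudilast, a range that holds the untreated one of -0.45 to -0.006. Gja1 and Gjb6 stand both in the astrocyte list and among the partners of glutamate uptake. Log2 fold changes that did not pass turned sign as follows, and the cause was not tested. Slc1a1 was -0.034 with upper-quartile factors, -0.32 and -0.39 with the neocortical and astrocyte scores, -0.22 with the span trend removed and -0.095 to 0.14 with 1 library left out. Slc1a2 was -0.51 with the neocortical score. Slc1a3 was 0.30 and 0.27 with the neocortical and astrocyte scores. Slc17a6 was -0.018 with the thalamic score and -0.072 without the 3 libraries. Slc17a7 was 0.077 and 0.010 with the hippocampal and thalamic scores, 0.10 without the 3 libraries and -0.22 to 0.062 with 1 left out. With the replicate number as a block edgeR called 3535 genes, and Slc38a1 (1.91, adjusted p = 0.00304) and Slc38a3 (-0.41, adjusted p = 0.0383) were again the members called. Same-numbered libraries of both groups correlated at -0.13 to 0.02 in their deviations from the group means, and none matched its own number best, so the numbers were not read as pairs. Among the 8 members depth limits Slc17a6 most, with 55 counts in ibudilast 4, and in the lists Slc17a8 had fewer. P-values weigh a group difference against the spread between these 5 animals per group, with information on that spread shared between genes. They do not separate treatment from the tissue differences between the groups.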

Other observations

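Genes next to Slc38a1 on chromosome 7 in the RefSeq order (GRCr8) were looked at after the values were seen. Besides Slc38a2 on one side, Scaf11 on the other side, which encodes a splicing-associated protein, was higher with ibudilast (log2 fold change 0.50 ± 0.11, SE; edgeR adjusted p = 0.00456). Amigo2, which encodes an adhesion protein known as a marker of the CA2 field of the hippocampus and lies beyond Slc38a4, was lower (-1.53 ± 0.32, SE; adjusted p = 0.00451), while Ano6 and Pced1b did not pass. Slc38a4 was not among the tested genes.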
